A study of Mus musculus with 68 samples.

Results

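The 10 genes followed here, Actc1, Acta2, Tagln, Tpm1, Myh9, Flnc, Flna, Phldb2, Itga3 and Vim, encode parts of the contractile actin cytoskeleton, its anchors at the membrane, and one intermediate filament protein. They were taken by name from the 55335 gene rows of 3 count tables, and all 10 passed the filter on low counts in each table. The genes were selected on their fold changes in the POLE4-KO clones, so their values in those clones are a description and carry no test. All cells were mouse ESCs of the E14JU line (129/Ola), grown on gelatin with serum and LIF, and rRNA-depleted RNA was sequenced. In the POLE4 experiment, 3 knockout clones (POLE4-KO#1, POLE4-KO#2 and POLE4-KO#3), which lack a small subunit of DNA polymerase epsilon, were set against WT#1 with 3 libraries per line. In the rescue experiment, MCM2-R#2 (the mutant clone with MCM2 restored to the wild-type sequence), MCM2-2A#2 (a clone whose MCM2, a subunit of the replicative helicase, is mutated where it binds histones) and WT#1 were each sequenced from 4 cultures. The name MCM2-R#2 rests on the study's sample table, since in the labels these libraries are called wild type and carry a different line number. In the clone experiment, 8 MCM2-2A clones were compared with 7 WT clones in 3 batches named after months. Each line of the first 2 experiments is 1 clone, so its cultures or libraries measure the spread within that clone. Nothing in the labels says that the 3 POLE4 libraries of a line came from separate cultures, while the paper counts them as 3 biological replicates.

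In contractile cells, nonmuscle myosin II, whose main heavy chain is the product of Myh9, pulls on actin filaments that are stabilised by tropomyosin (Tpm1), crosslinked by filamins (Flna, Flnc) and tied through integrins to the laminin under the cell. Assembly of actin into filaments frees the coactivator MRTF from actin monomers, and MRTF with the transcription factor SRF then activates genes that carry a CArG box, among them the muscle-type actins and Tagln. Tension on adhesions also moves YAP into the nucleus, where it works with TEAD factors, and ESCs grown in serum are known to hold such adhesions to their dish.

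The CArG box next to the RefSeq start of Actc1, the member with the widest range of levels in these data, is shown because it is the classical binding sequence of SRF. The stretch below is upstream sequence from RefSeq (GRCm38.p6), chr2:114052888-114052975 on the minus strand, read 5′ to 3′, with the CArG box in capitals. The box begins 47 bases before the RefSeq start. In GENCODE vM21 the stretch directly precedes a transcript of 7 exons that starts at base 114052887, and it lies in an intron of a transcript of 2 exons whose first exon, chr2:114053404-114053548, is farther upstream.

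Actc1 promoter: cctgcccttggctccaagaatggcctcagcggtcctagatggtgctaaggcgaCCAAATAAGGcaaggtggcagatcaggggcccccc

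A promoter entry was found for 9 of the 10 genes, Tagln being the one without. A CArG box on either strand stood within the 250 bases before the start in 1 of these 9 genes, against 1.47% of 32851 mouse promoter windows of that length. Only exact matches to CCWWWWWWGG, with W for A or T, were counted, so a box with a mismatched base was not found by this search. A gene with several windows was counted once, while the shares are per window. The TEAD motif GGAATG, on either strand, stood in 4 of the 9 (Flnc, Flna, Acta2 and Tpm1), against 12.6% of the windows, and a match of this kind is a description of the sequence.

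Libraries held 18369196 to 26975105 counts of genes and repeats in the POLE4 experiment, 23161127 to 35602583 in the rescue experiment and 27854706 to 67467849 in the clone experiment. Levels are given as CPM, the counts of a gene divided by the total over gene rows, scaled with TMM factors and set to a total of 1000000. The targeted gene Pole4 was at 2.89 to 3.79 CPM in POLE4-KO#1, 6.39 to 8.24 CPM in POLE4-KO#2 and 2.99 to 4.91 CPM in POLE4-KO#3, against 56.5 to 62.1 CPM in WT#1. Mcm2 was at 206.5 to 217.5 CPM in MCM2-R#2 and 217.1 to 231.8 CPM in MCM2-2A#2, against 399.2 to 440.4 CPM in WT#1, so the level of its RNA in MCM2-R#2 was like that in MCM2-2A#2. The ESC factor Pou5f1 was at 835.1 to 921.6 CPM in POLE4-KO#1, 674.4 to 899.4 CPM in POLE4-KO#2 and 688.0 to 731.3 CPM in POLE4-KO#3, against 816.8 to 914.9 CPM in WT#1 of the POLE4 experiment. POLE4-KO#3 thus lay below WT#1 without overlap, as it did for Sox2 (201.7 to 262.3 against 292.6 to 330.9 CPM). The summed level of 15 ESC markers was 3766 to 4092 CPM in POLE4-KO#3 and 4149 to 4882 CPM in WT#1, while POLE4-KO#1 and POLE4-KO#2 overlapped with WT#1. Of the muscle markers, Myod1, Myog, Tnnt2, Myh11 and Myocd were all under 1 CPM in WT#1 of that experiment. Others were higher, with Myh7 at 1.21 to 1.77 CPM and Myh6 and Des at 3.96 to 6.50 CPM in WT#1. The highest of the muscle markers listed below were Ttn and Smtn, at means of 94.6 and 23.9 CPM over the libraries of the experiment.

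The POLE4-KO clones differed from each other in these genes. POLE4-KO#1 and POLE4-KO#2 had lower levels than WT#1 for all 10 genes, with no overlap between the libraries of either clone and those of WT#1, while POLE4-KO#3 lay close to WT#1. The 2 muscle-type actins were lowest, and different further genes were low in POLE4-KO#1 and in POLE4-KO#2: Flnc and Phldb2 stood lower in the first, and Myh9 in the second. WT#1, the reference here and in the rescue experiment, stood high among WT clones. In the clone experiment below, its mean z-score over the 10 genes was 0.73 in March and 1.22 in August. Other WT clones ran from -1.01 (WT#6) to 1.12 (WT#2). The lowest August WT levels were 0.0443 CPM for Actc1, 0.561 for Acta2, 2.88 for Tagln, 177.4 for Myh9 and 68.4 for Itga3. The knockout clones were not tested against WT clones other than WT#1.

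**Figure D1:**
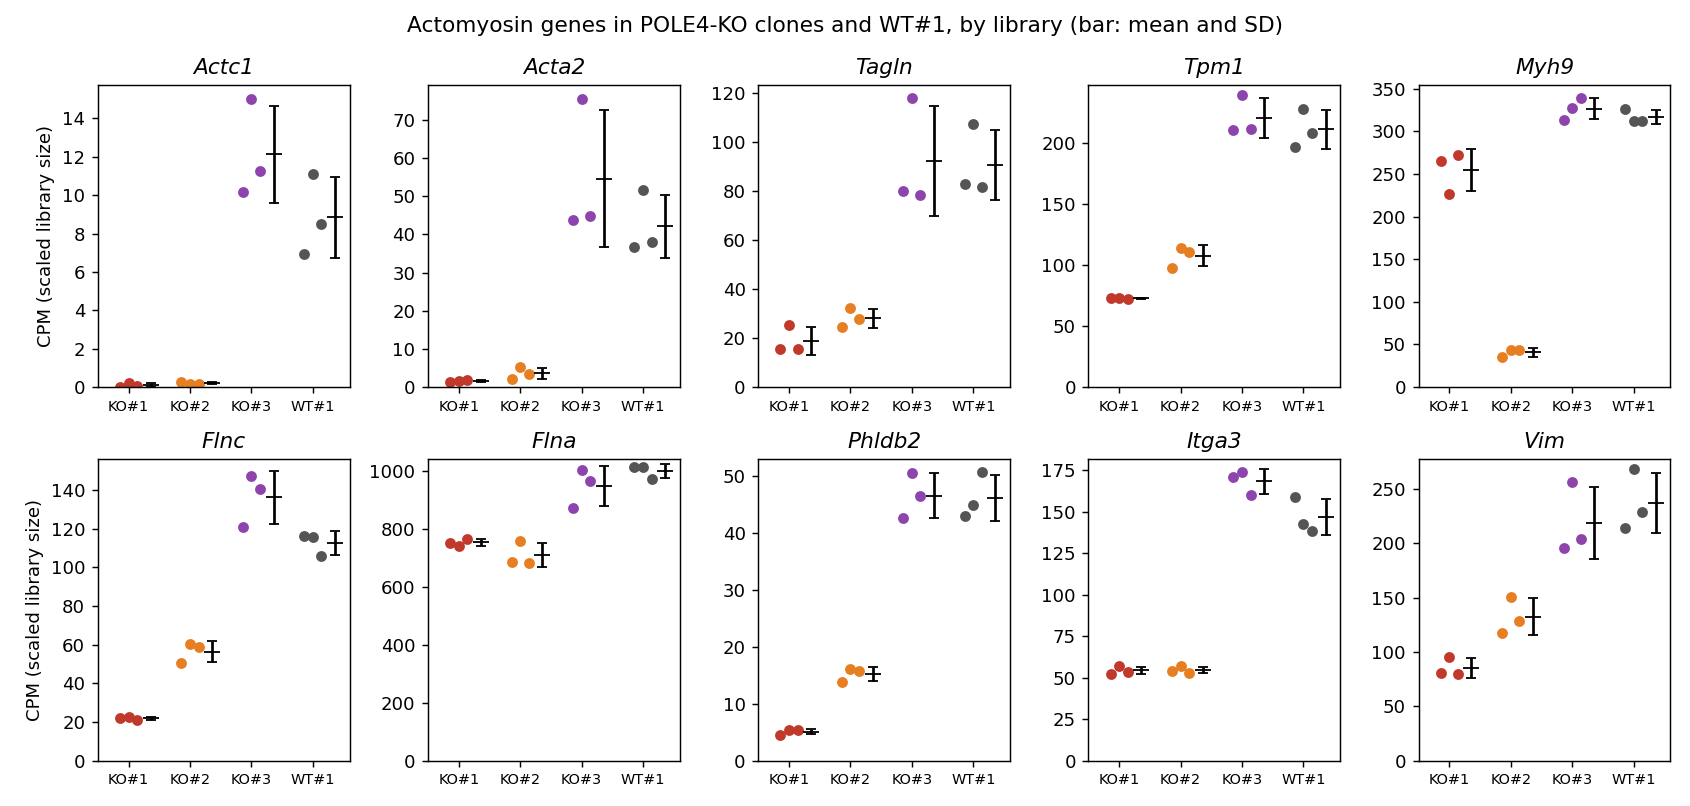
CPM of the 10 genes (linear axes from 0, 1 panel per gene) in the 3 libraries of POLE4-KO#1, POLE4-KO#2, POLE4-KO#3 and WT#1. Points are libraries and bars the mean with its SD. Actc1 stayed under 0.3 CPM in POLE4-KO#1 and POLE4-KO#2 and between 6.94 and 15.0 CPM in POLE4-KO#3 and WT#1, and Myh9 was at 34.8 to 44.0 CPM in POLE4-KO#2 alone.

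Actc1 (ENSMUSG00000068614, mm10 chr2:114047282-114053548, minus strand) encodes the cardiac actin of the sarcomere. It had 0, 0.222 and 0.0781 CPM in POLE4-KO#1, 0.286, 0.168 and 0.172 CPM in POLE4-KO#2 and 10.2, 15.0 and 11.2 CPM in POLE4-KO#3, against 6.94, 11.1 and 8.50 CPM in WT#1. These levels rest on 7 counts in all in POLE4-KO#1 and 14 in POLE4-KO#2, against 606 in WT#1, and the POLE4-KO#1 library with no count allows up to 0.160 CPM at 3 counts. The 2 low clones thus kept 1.13% and 2.36% of the WT#1 mean. The log2 fold change was -6.34 ± 0.39 (SE) in POLE4-KO#1 and -5.40 ± 0.34 in POLE4-KO#2, and the first ran from -7.45 to -5.88 when single libraries were left out.

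Acta2 (ENSMUSG00000035783, chr19:34241090-34255590, minus strand) encodes the smooth muscle actin of stress fibres in myofibroblasts. It had 1.28, 1.51 and 1.80 CPM in POLE4-KO#1, 2.19, 5.17 and 3.56 CPM in POLE4-KO#2 and 43.7, 75.4 and 44.7 CPM in POLE4-KO#3, against 36.7, 51.5 and 38.0 CPM in WT#1. The log2 fold change was -4.76 ± 0.29 in POLE4-KO#1, -3.52 ± 0.26 in POLE4-KO#2 and 0.37 ± 0.21 in POLE4-KO#3. Reads of Acta2, Actc1, Acta1 and Actg2, whose coding sequences are nearly the same, may be split among these genes in ways the counting method decides, which leaves their single levels uncertain. The other actins of muscle type were low in the same clones, Acta1 at -4.19 ± 0.29 and -3.07 ± 0.26 and Actg2 at -2.72 ± 0.45 and -2.24 ± 0.42 on the log2 scale in POLE4-KO#1 and POLE4-KO#2.

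Tagln (ENSMUSG00000032085, chr9:45929619-45936058, minus strand) encodes transgelin, an actin-bundling protein of smooth muscle and fibroblasts. It had 15.5, 25.4 and 15.5 CPM in POLE4-KO#1, 24.4, 32.2 and 27.9 CPM in POLE4-KO#2 and 80.1, 118.0 and 78.5 CPM in POLE4-KO#3, against 83.0, 107.2 and 81.6 CPM in WT#1. The fold changes were -2.27 ± 0.19, -1.69 ± 0.19 and 0.02 ± 0.18 on the log2 scale in the 3 knockout clones in order of number. The gene shares 1241 exonic bases with an antisense gene, Gm48529, which stayed at 0.300 to 1.10 CPM in all groups of the 3 experiments, and whether strand was used in counting is not given in the sources used here.

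Tpm1 (ENSMUSG00000032366, chr9:67022590-67049406, minus strand) encodes a tropomyosin that lies along actin filaments. It was at 71.9 to 72.9 CPM in POLE4-KO#1, 97.7 to 114.1 CPM in POLE4-KO#2 and 210.8 to 238.9 CPM in POLE4-KO#3, against 196.6 to 227.6 CPM in WT#1. The log2 fold change was -1.54 ± 0.08 in POLE4-KO#1 and -0.97 ± 0.08 in POLE4-KO#2.

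Myh9 (ENSMUSG00000022443, chr15:77760587-77842175, minus strand) ordered the knockout clones differently from the actins. It had 264.8, 226.1 and 271.8 CPM in POLE4-KO#1, 34.8, 43.0 and 44.0 CPM in POLE4-KO#2 and 313.7, 327.2 and 338.9 CPM in POLE4-KO#3, against 326.5, 312.1 and 312.4 CPM in WT#1. POLE4-KO#1 lay below WT#1 but far above POLE4-KO#2, which kept 12.8% of the WT#1 mean. On the log2 scale this is -2.96 ± 0.09 in POLE4-KO#2, -0.32 ± 0.09 in POLE4-KO#1 and 0.04 ± 0.09 in POLE4-KO#3. The other nonmuscle myosin heavy chain genes, Myh10 and Myh14, were not called in any knockout clone.

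The genes around Myh9 lay closer to WT#1 in POLE4-KO#2 than Myh9 itself. Of 26 tested genes whose start lay within 1 Mb, 2 were called lower in POLE4-KO#2 (Card10 at -0.84 ± 0.17, adjusted p = 0.00143, and Mpst at -0.87 ± 0.13, adjusted p = 0.000121, edgeR quasi-likelihood test), and the median of the 26 was -0.11. The limits of a call, which are those of the study, were a Benjamini-Hochberg adjusted p below 0.01 over all genes tested with a log2 fold change beyond 0.58 in size. Mpst was also called lower in POLE4-KO#3, at -0.61 ± 0.13 (adjusted p = 0.00619), and Card10 in POLE4-KO#1, at -1.34 ± 0.17 (adjusted p = 2.43e-05).

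**Figure D2:**
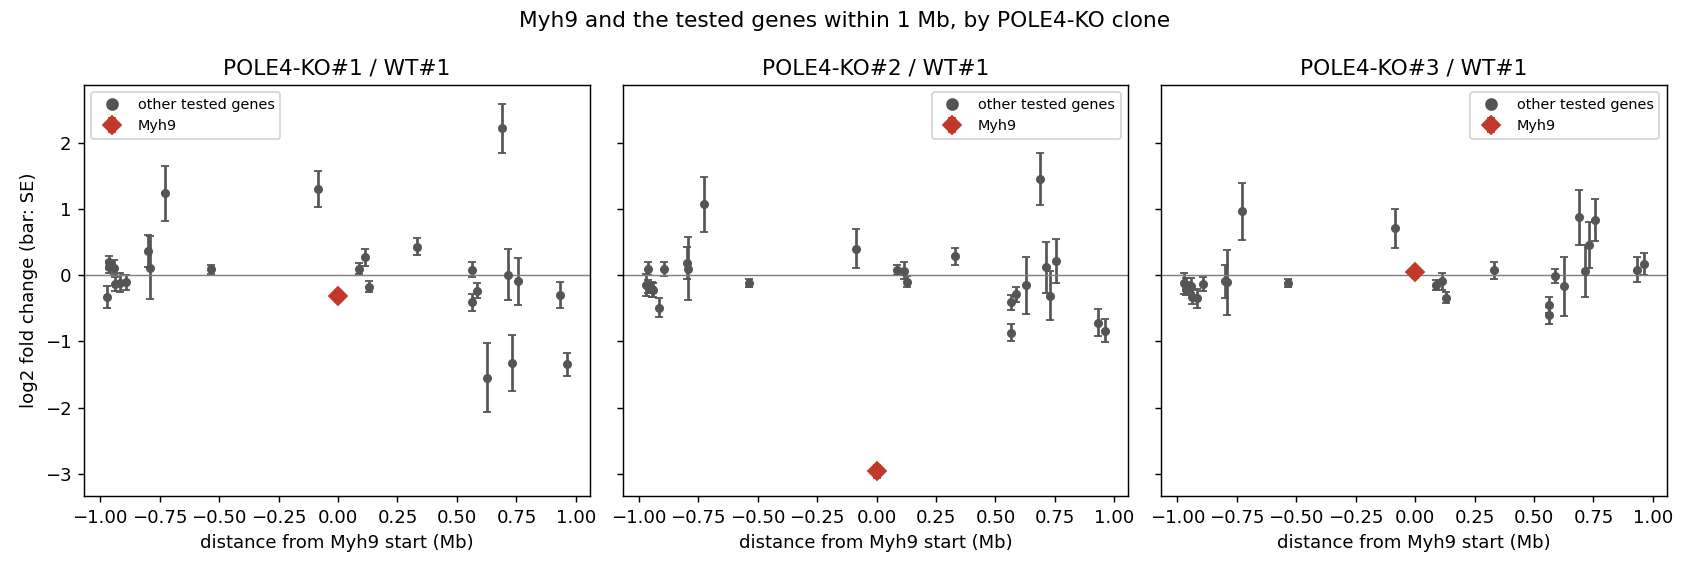
Log2 fold change over WT#1 (points, with SE) of Myh9 (diamond) and the 26 tested genes within 1 Mb, by distance from the Myh9 start in Mb, for POLE4-KO#1, POLE4-KO#2 and POLE4-KO#3. In POLE4-KO#2 Myh9 lay at -2.96, below all 26 neighbours, the lowest of which was at -0.87.

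Of the filamins, which crosslink actin into networks and bind integrin tails, Flnc (ENSMUSG00000068699, chr6:29433256-29461883, plus strand), the muscle form, differed far more between clones than Flna (ENSMUSG00000031328, chrX:74223461-74249820, minus strand), the form found in nearly all cells. Flnc had 22.0, 22.9 and 21.2 CPM in POLE4-KO#1, 50.4, 60.2 and 58.7 CPM in POLE4-KO#2 and 121.0, 147.2 and 140.2 CPM in POLE4-KO#3, against 116.1, 115.9 and 105.6 CPM in WT#1. The POLE4-KO#3 libraries all lay above those of WT#1 for this gene, by 0.27 ± 0.08 on the log2 scale. Flna was at 740.4 to 766.4 CPM in POLE4-KO#1, 683.6 to 757.5 CPM in POLE4-KO#2 and 872.9 to 1004 CPM in POLE4-KO#3, against 970.4 to 1015 CPM in WT#1. Its log2 fold changes, -0.41 ± 0.07 in POLE4-KO#1 and -0.49 ± 0.07 in POLE4-KO#2, are under the fold limit of a call. Set against this, Flnc was at -2.35 ± 0.09 in POLE4-KO#1 and -0.99 ± 0.09 in POLE4-KO#2.

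Phldb2 (ENSMUSG00000033149, chr16:45746243-45953598, minus strand) encodes LL5-beta, a phosphoinositide-binding protein that ties microtubule ends to the cortex beside adhesions. It had 4.58, 5.37 and 5.39 CPM in POLE4-KO#1, 13.8, 16.2 and 15.7 CPM in POLE4-KO#2 and 42.6, 50.4 and 46.5 CPM in POLE4-KO#3, against 42.8, 44.8 and 50.6 CPM in WT#1. As for Flnc, the level in POLE4-KO#1 was the lower of the 2, with log2 fold changes of -3.16 ± 0.11 and -1.60 ± 0.10.

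Itga3 (ENSMUSG00000001507, chr11:95044474-95076801, minus strand), the alpha 3 chain of a laminin-binding integrin, was low to a like degree in both clones. It had 52.6, 57.1 and 53.6 CPM in POLE4-KO#1, 54.1, 56.9 and 53.1 CPM in POLE4-KO#2 and 171.1, 173.8 and 159.8 CPM in POLE4-KO#3, against 158.8, 142.5 and 138.2 CPM in WT#1. The values of POLE4-KO#3 again all lay above those of WT#1, and the log2 fold changes were -1.43 ± 0.07, -1.42 ± 0.07 and 0.20 ± 0.07.

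Vim (ENSMUSG00000026728, chr2:13573927-13582826, plus strand) encodes vimentin, the intermediate filament protein of mesenchymal cells. It had 80.4, 95.5 and 79.6 CPM in POLE4-KO#1, 117.7, 150.6 and 128.7 CPM in POLE4-KO#2 and 195.8, 256.1 and 203.7 CPM in POLE4-KO#3, against 214.1, 267.9 and 229.0 CPM in WT#1. The log2 fold changes were -1.48 ± 0.12, -0.84 ± 0.12 and -0.12 ± 0.12.

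Counted over the 10 genes, 8 met the limits of a call as lower in POLE4-KO#1, where 7.97% of 16790 genes tested did, and 9 did so in POLE4-KO#2, where the share was 7%. These were all but Myh9 and Flna in POLE4-KO#1, and all but Flna in POLE4-KO#2. None of the 10 did so in POLE4-KO#3, with edgeR or with DESeq2, where 0.435% of genes were called lower and 2.57% higher. All 10 lay below WT#1 without overlap in POLE4-KO#1 (21.4% of genes tested) and in POLE4-KO#2 (22.9%), and 2 lay above it without overlap in POLE4-KO#3 (16.9%). The median log2 fold change was -1.90, -1.51 and 0.05 in the 3 clones, while the medians over all genes tested lay between -0.03 and 0.00. The 3 comparisons share the WT#1 libraries, and the list was picked with these values known, so nothing further is read from the counts. Library 2 held the highest level of its line for 9 of the 10 genes in POLE4-KO#3, 8 in POLE4-KO#2 and 6 in POLE4-KO#1.

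Partners of these genes, 103 further genes in 6 lists of which 102 were tested, were set beside the shares over all genes. The lists were chosen with earlier results of these data known, so their counts here and below are a description. In POLE4-KO#1, 29 (28.4%) were called lower, beside 7.97% of all genes tested, and none higher. In POLE4-KO#2, 33 (32.4%) were called lower, beside 7% of all genes, and 1 higher. In POLE4-KO#3 none was called lower and 5 higher, beside 0.435% and 2.57% of all genes. Of 12 actins and parts of myosin II, 3 fell in POLE4-KO#1 and 4 in POLE4-KO#2, with Acta1 and Actg2 followed by the regulatory light chain Myl9 at -1.35 ± 0.21 (adjusted p = 0.000136) and -1.08 ± 0.20 (adjusted p = 0.000853). Of 24 actin-binding proteins, 7 fell in POLE4-KO#1 and 9 in POLE4-KO#2. The calponin gene Cnn1, which codes for a smooth muscle protein that binds actin, was at -2.49 ± 0.22 and -1.88 ± 0.20 on the log2 scale (adjusted p = 2.91e-07 and 4.6e-06), and the LIM protein gene Fhl2 at -2.55 ± 0.25 and -1.69 ± 0.22 (adjusted p = 9.74e-07 and 3.28e-05). Cald1, which encodes caldesmon, fell by 1.69 in POLE4-KO#1 (adjusted p = 1.14e-08), and Cnn2, a calponin of nonmuscle cells, by 1.09 in POLE4-KO#2 (adjusted p = 2.43e-06). These adjusted p-values and those in the next 2 paragraphs are from edgeR quasi-likelihood tests over all genes.

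Among 23 tested integrins and focal adhesion proteins, 6 fell in POLE4-KO#1, and 7 fell in POLE4-KO#2, where the integrin gene Itgb3, named here after its value was seen, rose by 0.77 (adjusted p = 0.00798). Caveolin-1 (Cav1), which coats membrane pits that flatten under tension, was at -4.55 ± 0.31 and -2.38 ± 0.24, with adjusted p = 1.79e-08 and 2.16e-06. Tgfb1i1, which encodes the paxillin relative Hic-5, was at -2.69 ± 0.16 and -1.69 ± 0.15, with adjusted p = 4.04e-09 and 4.21e-07. Zyxin (Zyx), which gathers on strained stress fibres, fell in both as well, with adjusted p = 8.15e-08 in POLE4-KO#1 and, at -0.83 ± 0.15, 0.000486 in POLE4-KO#2. Of the intermediate filament genes other than Vim, 5 of 10 fell in each of the 2 clones, among them the keratins Krt8 (-3.68 ± 0.13 and -1.62 ± 0.12, adjusted p = 1.54e-11 and 7.39e-08) and Krt19 (-2.93 ± 0.15 and -1.77 ± 0.14, adjusted p = 8.36e-10 and 1.87e-07). Krt18, the partner of Krt8, fell by 3.38 in POLE4-KO#1 (adjusted p = 1.24e-10), and the nestin gene Nes by 1.26 in POLE4-KO#2 (adjusted p = 6.62e-08).

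Of 24 genes of the SRF, MRTF, YAP and RhoA pathway, 7 fell in POLE4-KO#1 and 8 in POLE4-KO#2. The YAP target Ankrd1 was at -4.14 ± 0.59 and -5.29 ± 0.68 (adjusted p = 6.1e-05 and 2.65e-05), and the kinase gene Lats2, which restrains YAP and is induced by it, was at -1.44 ± 0.18 and -1.11 ± 0.18 (adjusted p = 1.96e-05 and 0.000199). Ccn1, another YAP and SRF target, fell by 1.55 in POLE4-KO#1 (adjusted p = 5.84e-07), and Rhob, a small GTPase gene, by 1.22 in POLE4-KO#2 (adjusted p = 1.17e-06). Of 9 partners of Phldb2 at the cortex, 1 was called lower in POLE4-KO#1 (the kinesin gene Kif21a, -1.01 ± 0.16, adjusted p = 0.000155) and none in POLE4-KO#2. The basement membrane list, which holds the laminin ligands of Itga3, was mixed, with 4 of 14 lower and 2 higher in POLE4-KO#1 and 1 higher in POLE4-KO#2. The collagen IV genes Col4a2 and Col4a1 were at -2.10 ± 0.15 and -1.48 ± 0.11 in POLE4-KO#1 (adjusted p = 4.35e-08 and 7.52e-08), whereas the laminin gene Lama1 rose by 1.22 in POLE4-KO#1 and 0.94 in POLE4-KO#2 (adjusted p = 4.05e-05 and 0.000517).

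In POLE4-KO#3 the partner genes that passed the test were higher. They were the adhesion genes Tns1 (0.93 ± 0.15, adjusted p = 0.000704, edgeR) and Itgb3 (0.88 ± 0.20, adjusted p = 0.00913), the filament genes Krt7 (1.29 ± 0.14, adjusted p = 2.55e-05) and Synm (0.77 ± 0.12, adjusted p = 0.000596), and the SRF and MRTF list gene Fosl1 (1.07 ± 0.20, adjusted p = 0.00221). On the basement membrane list 4 of 14 genes were called higher and none lower, among them Col4a2 (1.09 ± 0.14, adjusted p = 8.72e-05) and Col4a1 (1.05 ± 0.11, adjusted p = 1.37e-05).

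Markers of other cell types differed between the same clones, those of fibroblasts, muscle, primitive endoderm and mesoderm among them. Col1a1, the fibrillar collagen of fibroblasts, was at 0.888 to 1.29 CPM in POLE4-KO#1, 3.11 to 4.20 CPM in POLE4-KO#2 and 53.9 to 66.3 CPM in POLE4-KO#3, against 60.1 to 64.4 CPM in WT#1. Of 12 tested fibroblast and mesenchyme markers, 6 were called lower in POLE4-KO#1, 5 in POLE4-KO#2 and none in POLE4-KO#3, and the summed level of the 18 on the list was 37.7 to 41.1, 40.7 to 51.0 and 119.7 to 145.2 CPM in these clones, against 120.7 to 126.1 CPM in WT#1. The summed level of 17 skeletal and cardiac muscle markers, most of it from Ttn, was 42.0 to 63.1 CPM in POLE4-KO#1, 188.9 to 201.7 CPM in POLE4-KO#2 and 92.4 to 110.5 CPM in POLE4-KO#3, against 67.6 to 100.2 CPM in WT#1. Of the 11 tested, 6 were lower and 1 higher in POLE4-KO#1, and 1 was lower and 1 higher in POLE4-KO#2. Of 8 smooth muscle markers, 2 were lower in POLE4-KO#1, 1 was lower and 1 higher in POLE4-KO#2 and 1 was higher in POLE4-KO#3, with sums of 28.6 to 30.4, 32.7 to 35.8 and 49.3 to 55.5 CPM in these clones, against 40.7 to 51.2 CPM in WT#1. By gene, 8 of 11 skeletal and cardiac and 6 of 8 smooth muscle markers had a log2 fold change below 0 in POLE4-KO#1, with medians of -1.03 and -0.62. In POLE4-KO#2 8 of 11 and 7 of 8 did, with medians of -0.27 and -0.59, though the summed level of the skeletal and cardiac list was above that of WT#1. Of 8 tested primitive endoderm markers, 4 were lower in POLE4-KO#1, 2 higher in POLE4-KO#2 and none was called in POLE4-KO#3, and the list summed to 215.7 to 219.4, 409.9 to 466.3 and 408.7 to 455.9 CPM in these clones, against 359.5 to 368.7 CPM in WT#1. Of 8 tested mesoderm and primitive streak markers, 4 were lower and 1 higher in POLE4-KO#1, 2 lower and 1 higher in POLE4-KO#2, and 1 lower and 1 higher in POLE4-KO#3, with sums of 66.6 to 76.0, 36.5 to 44.8 and 53.4 to 55.3 CPM, against 56.5 to 61.1 CPM in WT#1. The summed level of 12 mitochondrial and nuclear RNAs was 192247 to 244887 CPM in POLE4-KO#1, 216147 to 267130 CPM in POLE4-KO#2 and 205087 to 284538 CPM in POLE4-KO#3, against 163387 to 198316 CPM in WT#1. The part of these markers in the levels of the 10 genes was not tested, and in bulk RNA fewer cells of a type and less RNA per cell cannot be told apart.

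The rescue experiment addressed whether expression in the mutant line returns when MCM2 is restored. All 10 genes lay lower in MCM2-2A#2 than in WT#1 and higher in MCM2-R#2 than in MCM2-2A#2, with the actins, Tagln and Tpm1 furthest apart. Cultures of 1 line varied as well, and most of these differences did not pass the limits of a call. Actc1 passed them in both comparisons, and Flna in the comparison of MCM2-R#2 with MCM2-2A#2.

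**Figure D3:**
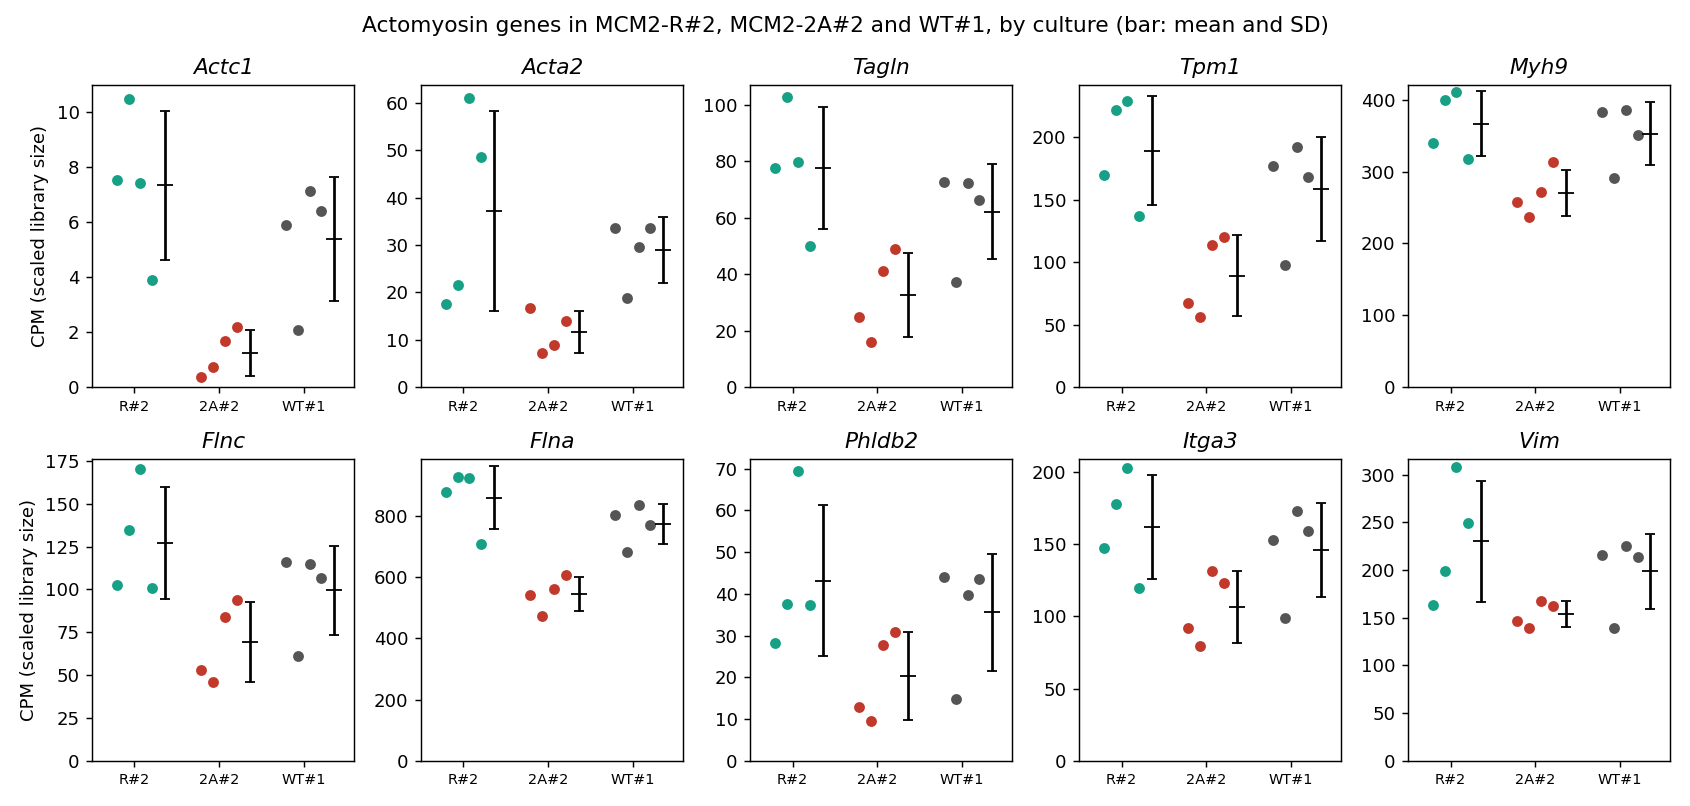
CPM of the 10 genes (linear axes from 0, 1 panel per gene) in the 4 cultures each of MCM2-R#2, MCM2-2A#2 and WT#1. Points are cultures and bars the mean with its SD. Flna in MCM2-2A#2, at 473.7 to 609.0 CPM, lay below all cultures of MCM2-R#2 and WT#1, and culture 2 of WT#1 was the lowest of its line in all 10 panels.

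Actc1 had 7.54, 10.5, 7.40 and 3.89 CPM in MCM2-R#2 and 0.375, 0.738, 1.67 and 2.19 CPM in MCM2-2A#2, against 5.90, 2.08, 7.12 and 6.40 CPM in WT#1. One WT#1 culture fell within the range of MCM2-2A#2, and MCM2-R#2 did not overlap with MCM2-2A#2. The gene fell by 2.04 ± 0.45 on the log2 scale in MCM2-2A#2 relative to WT#1 (adjusted p = 0.00862, edgeR) and rose by 2.47 ± 0.45 in MCM2-R#2 relative to MCM2-2A#2 (adjusted p = 0.00534). These calls were held in 4 of 12 and 7 of 12 fits that left out 1 culture, where the adjusted p ran from 0.00261 to 0.0297 and from 0.00211 to 0.0227. The call against WT#1 was lost without any 1 of 8 cultures, namely cultures 1, 3 or 4 of WT#1, 1, 2 or 3 of MCM2-2A#2 and 1 or 3 of MCM2-R#2, and the call against MCM2-2A#2 without culture 1 or 2 of MCM2-2A#2 or culture 1, 2 or 3 of MCM2-R#2.

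Flna had 878.9, 928.9, 923.1 and 709.0 CPM in MCM2-R#2 and 543.0, 473.7, 560.2 and 609.0 CPM in MCM2-2A#2, against 803.3, 682.8, 837.3 and 772.4 CPM in WT#1. MCM2-2A#2 lay below both other lines without overlap. The log2 difference was 0.65 ± 0.09 between MCM2-R#2 and MCM2-2A#2 (adjusted p = 0.00101, edgeR), called in 12 of 12 fits without 1 culture. Between MCM2-2A#2 and WT#1 it was -0.50 ± 0.09 (adjusted p = 0.00303), which is short of the fold limit.

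Acta2 had 17.5, 21.5, 61.1 and 48.6 CPM in MCM2-R#2 and 16.6, 7.12, 8.90 and 13.9 CPM in MCM2-2A#2, against 33.6, 18.9, 29.5 and 33.6 CPM in WT#1. The cultures of MCM2-R#2 differed from each other more than those of the other lines, and all 4 stood above MCM2-2A#2. The log2 difference was 1.65 ± 0.37 (adjusted p = 0.0138, edgeR) between MCM2-R#2 and MCM2-2A#2, and -1.29 ± 0.36 (adjusted p = 0.0287) between MCM2-2A#2 and WT#1.

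Tagln had 77.6, 102.7, 79.9 and 49.9 CPM in MCM2-R#2 and 24.9, 15.8, 41.2 and 48.8 CPM in MCM2-2A#2, against 72.5, 37.2, 72.2 and 66.4 CPM in WT#1. The lowest MCM2-R#2 culture was just above the highest of MCM2-2A#2. Tpm1 had 169.8, 222.1, 228.8 and 136.9 CPM in MCM2-R#2 and 67.1, 55.9, 114.1 and 120.0 CPM in MCM2-2A#2, against 177.1, 97.6, 192.3 and 168.0 CPM in WT#1. Relative to MCM2-2A#2, MCM2-R#2 differed by 1.24 ± 0.30 for Tagln (adjusted p = 0.0235, edgeR) and 1.08 ± 0.25 for Tpm1 (adjusted p = 0.0187) on the log2 scale. MCM2-2A#2 differed from WT#1 by -0.92 ± 0.30 (adjusted p = 0.0562) and -0.83 ± 0.25 (adjusted p = 0.0407).

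Myh9, which was low in POLE4-KO#2, had 340.0, 399.4, 410.5 and 317.4 CPM in MCM2-R#2 and 257.5, 237.3, 271.6 and 313.1 CPM in MCM2-2A#2, against 382.4, 291.2, 386.5 and 351.3 CPM in WT#1. The log2 differences of 0.44 ± 0.11 and -0.39 ± 0.11 (adjusted p = 0.0209 and 0.0256, edgeR) were under the fold limit. Flnc was at 100.6 to 170.1 CPM in MCM2-R#2 and 46.1 to 94.1 CPM in MCM2-2A#2, against 61.0 to 115.8 CPM in WT#1. Phldb2 was at 28.2 to 69.4 CPM in MCM2-R#2 and 9.56 to 30.8 CPM in MCM2-2A#2, against 14.8 to 44.1 CPM in WT#1. For these genes MCM2-2A#2 overlapped with WT#1, at -0.52 ± 0.24 for Flnc and -0.80 ± 0.39 for Phldb2 (adjusted p = 0.169 and 0.185, edgeR).

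Itga3 was at 119.8 to 202.9 CPM in MCM2-R#2 and 79.7 to 131.6 CPM in MCM2-2A#2, against 98.6 to 173.2 CPM in WT#1. Vim was at 163.1 to 308.3 CPM in MCM2-R#2 and 139.7 to 168.0 CPM in MCM2-2A#2, against 139.5 to 225.0 CPM in WT#1. Both overlapped between the lines, and the log2 differences of MCM2-2A#2 from WT#1, -0.45 ± 0.19 for Itga3 and -0.37 ± 0.17 for Vim, had adjusted p = 0.131 and 0.169 (edgeR). In MCM2-R#2 relative to MCM2-2A#2 they were 0.60 ± 0.19 and 0.58 ± 0.17 (adjusted p = 0.0683 and 0.0512).

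Over the list, all 10 genes lay below 0 in MCM2-2A#2 relative to WT#1, as did 52.8% of genes tested, and all 10 above 0 in MCM2-R#2 relative to MCM2-2A#2, where 47.8% of genes lay below. Of the 10, 1 was called lower in MCM2-2A#2 relative to WT#1, where 1.08% of the 17041 genes were, and 2 did not overlap (11.6% of genes). In MCM2-R#2 relative to MCM2-2A#2, 2 were called higher (0.522% of genes) and 7 did not overlap (8.43%). The median log2 fold change of the 10 was -0.66 in the first comparison and 0.97 in the second, beside -0.01 and 0.01 over all genes, and these comparisons share the MCM2-2A#2 cultures. In MCM2-R#2 relative to WT#1, log2 fold changes were 0.06 to 0.43, and none of the 10 was called by edgeR (0.299% of genes called either way) or DESeq2 or had an unadjusted p below 0.05. The SE ran from 0.09 for Flna to 0.39 for Actc1, which leaves room for differences of that order.

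**Figure D4:**
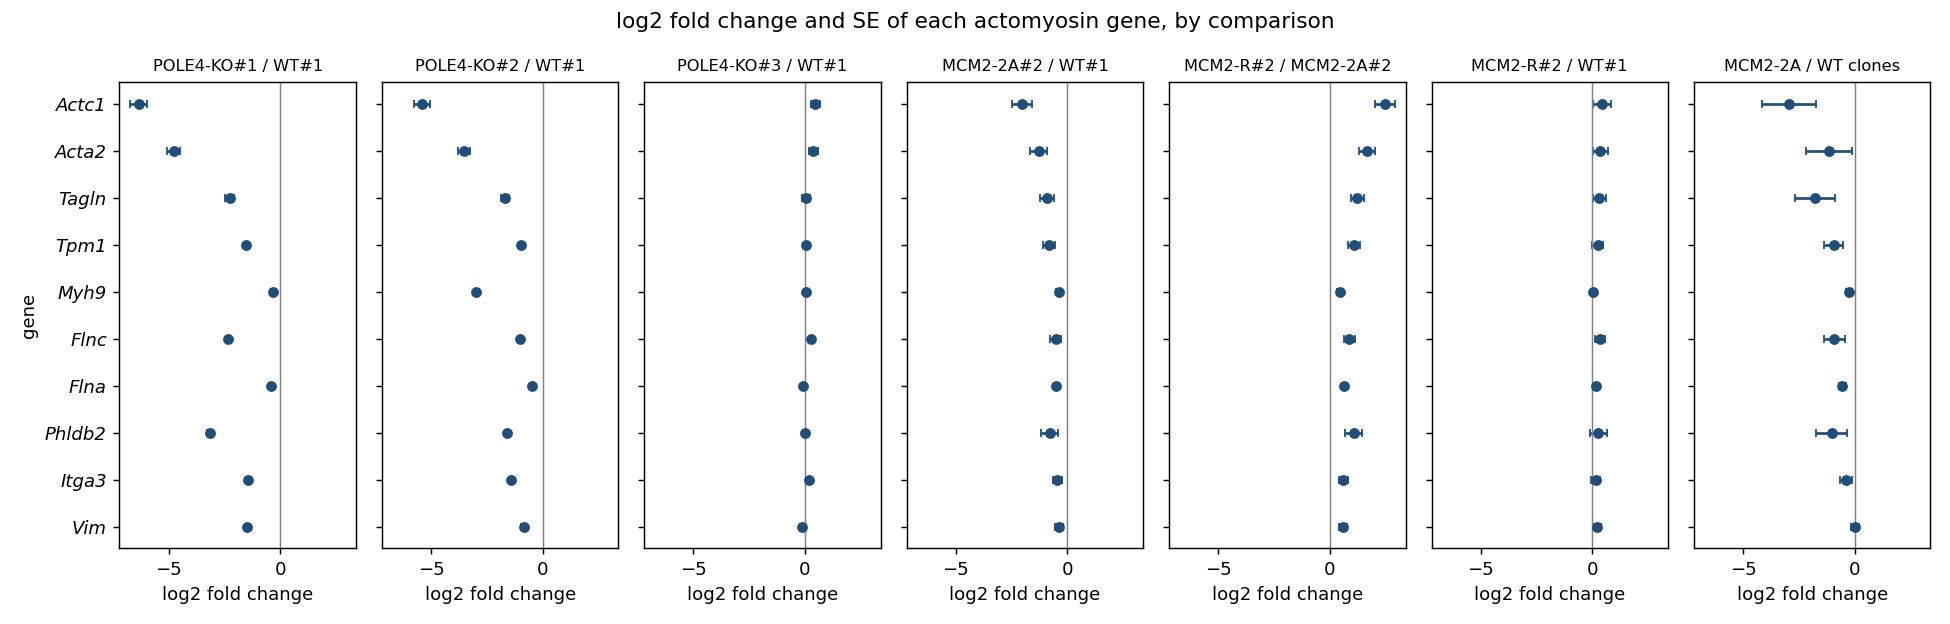
Log2 fold change (x axis, points) with its SE (bars) of the 10 genes in the 7 comparisons, 1 panel each on a shared scale. The median of the 10 was -1.90, -1.51 and 0.05 in POLE4-KO#1, POLE4-KO#2 and POLE4-KO#3, -0.66 in MCM2-2A#2, 0.97 for MCM2-R#2 over MCM2-2A#2, 0.27 for MCM2-R#2 over WT#1 and -0.93 for the MCM2-2A clones over WT clones.

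The 10 genes varied together from culture to culture within a line. Culture 2 of WT#1 had the lowest level of its line for 10 of 10 genes, and culture 2 of MCM2-2A#2 for 9. Culture 4 of MCM2-R#2 was lowest for 7 and its culture 3 highest for 7. The second sequencing run held 2 cultures of MCM2-2A#2 and 2 of WT#1, in part or in whole, and none of MCM2-R#2. Levels of a culture sequenced in both runs were close, with 1.97 and 2.42 CPM of Actc1 in MCM2-2A#2 culture 4, and 7.18 and 6.95 CPM in WT#1 culture 3. Within the first run alone, Actc1 differed by -2.27 on the log2 scale between MCM2-2A#2 and WT#1 (adjusted p = 0.0254, edgeR) and by 2.79 between MCM2-R#2 and MCM2-2A#2 (adjusted p = 0.01), and Flna by 0.65 between MCM2-R#2 and MCM2-2A#2 (adjusted p = 0.00668), so the first of these was short of a call there. The second run holds no MCM2-R#2 culture and 2 or fewer cultures of each of the other lines, and was not compared on its own.

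Of the 102 tested partner genes, 5 (4.9%) were called lower in MCM2-2A#2 relative to WT#1, beside 1.08% of all genes tested, and 2 higher. In MCM2-R#2 relative to MCM2-2A#2, 8 (7.84%) were called higher, beside 0.522% of all genes, and none lower. An unadjusted p below 0.05 (edgeR) was found for 58 partners in the first comparison and 64 in the second. In MCM2-R#2 relative to WT#1 none was called by edgeR, and 16 had an unadjusted p below 0.05. The share of all genes with an unadjusted p below 0.05 is not given here, so nothing is read from these unadjusted counts. Vcl, whose product vinculin reinforces adhesions, fell by 0.61 in MCM2-2A#2 (adjusted p = 0.0046, edgeR) and rose by 0.82 in MCM2-R#2 (adjusted p = 0.0014). Cnn2 fell by 0.69 in MCM2-2A#2 (adjusted p = 0.00401) and rose by 0.90 in MCM2-R#2 (adjusted p = 0.00138), and Cdc42ep5, a Cdc42 effector that organises actin, fell by 0.68 (adjusted p = 0.00567) and rose by 0.70 (adjusted p = 0.00867). Fhl1 and Lima1 were also lower in MCM2-2A#2, at -0.84 ± 0.14 and -0.78 ± 0.10 (adjusted p = 0.00163 and 0.00016), whereas the myosin light chain kinase gene Mylk, at 1.56 ± 0.31 (adjusted p = 0.00447), and Tns1, at 0.77 ± 0.14 (adjusted p = 0.00257), were higher. Myl9 and Cnn1 rose by 1.34 and 1.57 in MCM2-R#2 relative to MCM2-2A#2 (adjusted p = 0.000603 and 0.00941), as did Tpm2 and Ilk by 0.61 and 0.62 (adjusted p = 0.00603 and 0.00672) and Rnd3 by 0.61 (adjusted p = 0.00485). On the basement membrane list Col4a1, Col4a2 and Lama1 were higher in MCM2-2A#2 by 1.20, 0.99 and 0.69 (adjusted p = 0.000245, 0.00642 and 0.000146), and Col4a1 and Lama1 fell by 0.87 and 0.96 in MCM2-R#2 relative to MCM2-2A#2 (adjusted p = 0.00508 and 2.07e-05).

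Of the primitive endoderm markers, 8 of 11 were called higher in MCM2-2A#2 relative to WT#1 and 8 lower in MCM2-R#2 relative to MCM2-2A#2. The summed level of the list was 351.9 to 425.4 CPM in MCM2-R#2 and, at 385.4 CPM or more, within that range in each culture of MCM2-2A#2, against 290.8 to 348.9 CPM in WT#1. Of 12 tested fibroblast markers none was called by edgeR in this experiment, with an unadjusted p below 0.05 for 4 in MCM2-2A#2 relative to WT#1 and 4 in MCM2-R#2 relative to MCM2-2A#2, and Col1a1 was at 35.4 to 144.8 CPM in MCM2-R#2 and 25.1 to 53.2 CPM in MCM2-2A#2, against 31.7 to 77.6 CPM in WT#1. Those unadjusted counts stand without the share of all genes. Among 10 tested skeletal and cardiac muscle markers, 1 was called higher in MCM2-2A#2 relative to WT#1 and 2 lower in MCM2-R#2 relative to MCM2-2A#2. Their median log2 fold changes were 0.32 and -0.25. The 8 smooth muscle markers had medians of 0.12 and 0.04, with 1 called higher in the second comparison. For 8 tested mesoderm and primitive streak markers, none called, the medians were 0.000334 and 0.30. The part of these markers in the levels of the 10 genes was not tested.

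Across independent MCM2-2A and WT clones, levels differed between clones of 1 genotype, and over all batches the genotypes overlapped for each of the 10 genes. Levels of the actins and Tagln ranged widely among WT clones, and MCM2-2A clones stood both above and below them. Of the 10 genes 9 had a negative log2 fold change in MCM2-2A clones, as had 54.6% of genes tested, and none was called.

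**Figure D5:**
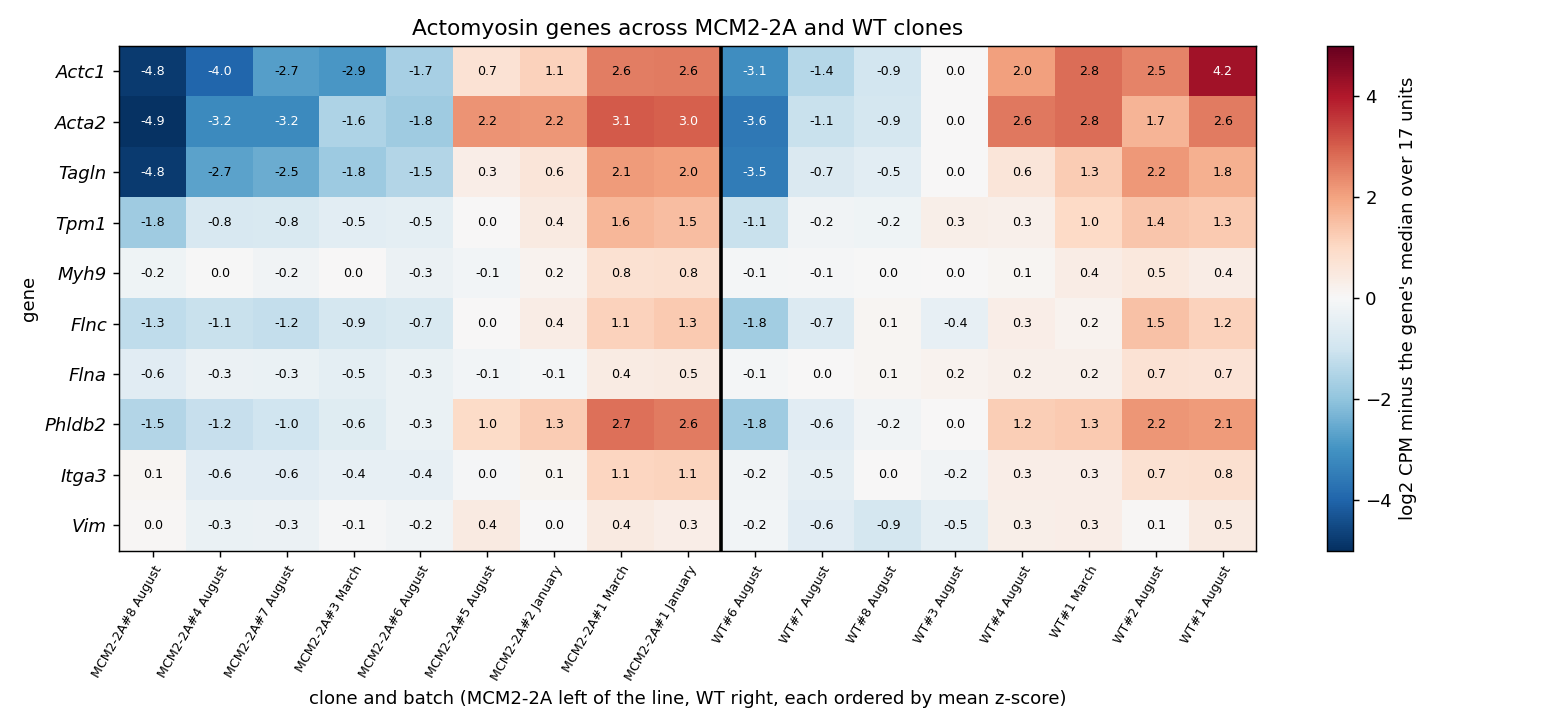
Log2 CPM of the 10 genes (rows) in each clone and batch (columns) minus the gene's median over the 17 clone and batch units, with MCM2-2A clones left of the line and WT clones right of it, each ordered by the mean z-score of the 10 genes. The lowest columns on each side are MCM2-2A#8 and WT#6 and the highest MCM2-2A#1 and WT#1, with mean z-scores of -1.23 to 1.35 in MCM2-2A and -1.01 to 1.22 in WT, and Actc1, Acta2, Tagln and Phldb2 are the rows of widest range.

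Tagln shows the range. MCM2-2A#8 had 1.17 CPM, MCM2-2A#4 had 5.23, MCM2-2A#7 had 5.94, MCM2-2A#3 had 9.48, MCM2-2A#6 had 11.8, MCM2-2A#5 had 41.8, MCM2-2A#2 had 50.4, and MCM2-2A#1 had 136.9 CPM in January and 145.5 CPM in March. In WT clones it was at 2.88 CPM in WT#6, 20.3 in WT#7, 23.1 in WT#8, 33.1 in WT#3, 50.2 in WT#4 and 149.7 in WT#2, and at 80.2 and 112.7 CPM in the March and August units of WT#1. Both the highest levels and levels under 3 CPM thus occurred in each genotype. The log2 fold change of MCM2-2A over WT clones was -1.77 ± 0.89, with adjusted p = 0.269 (edgeR with batch as a covariate), and ran from -2.71 without MCM2-2A#5 (adjusted p = 0.145) to -1.34 without WT#2 (adjusted p = 0.418). A clone could also vary within its own batch, as the 3 January libraries of MCM2-2A#2 ran from 14.0 to 97.1 CPM, whereas the 3 March libraries of MCM2-2A#3 stayed at 8.78 to 10.6 CPM.

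For Acta2, MCM2-2A#8 had 0.204 CPM, MCM2-2A#4 had 0.736, MCM2-2A#7 had 0.749, MCM2-2A#6 had 2.00, MCM2-2A#3 had 2.32, MCM2-2A#2 had 32.0, MCM2-2A#5 had 32.5, and MCM2-2A#1 had 55.3 and 57.3 CPM. In WT clones it was at 0.561 CPM in WT#6, 3.18 in WT#7, 3.75 in WT#8, 6.88 in WT#3, 22.7 in WT#2, 42.5 in WT#4 and 42.3 and 48.1 CPM in WT#1. Low and high levels occurred in both genotypes, and the difference, -1.16 ± 1.04 (adjusted p = 0.572, edgeR), was -3.58 without MCM2-2A#5 (adjusted p = 0.108) and -0.83 without WT#4 (adjusted p = 0.707).

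Actc1 had no count in MCM2-2A#8, which allows up to 0.0510 CPM at 3 counts, and was at 0.0150 to 0.905 CPM in the remaining August clones of this genotype, at 0.0527 in MCM2-2A#3, at 1.21 in MCM2-2A#2 and at 3.28 and 3.35 CPM in MCM2-2A#1. In WT clones it was at 0.0443 CPM in WT#6, 0.188 in WT#7, 0.277 in WT#8, 0.537 in WT#3, 2.26 in WT#4, 3.10 in WT#2 and 3.81 and 10.3 CPM in WT#1. The log2 fold change was -2.93 ± 1.20 (adjusted p = 0.166, edgeR), with -4.16 without MCM2-2A#5 (adjusted p = 0.128) and -2.19 without WT#1 (adjusted p = 0.405), and in 7 of the 17 units the gene rested on 14 counts or fewer.

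Flna showed the smallest adjusted p of the 10. In August, when 5 MCM2-2A clones and 7 WT clones were sequenced side by side, it was at 391.4 to 525.5 CPM in MCM2-2A clones and 534.2 to 942.2 CPM in WT clones, with no overlap. It was the single gene of the 10 for which this held, where 1.8% of genes tested lay lower without overlap. The log2 fold change was -0.55 ± 0.16 (adjusted p = 0.0599, edgeR) over all batches and -0.61 in August alone (adjusted p = 0.0538). In March, MCM2-2A#3 had 410.1 CPM and MCM2-2A#1 764.6 CPM, against 677.2 CPM in WT#1, so the clones stood on either side of it.

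For the remaining genes the log2 fold changes were -1.03 ± 0.69 for Phldb2 (adjusted p = 0.421, edgeR), -0.95 ± 0.42 for Tpm1 (adjusted p = 0.209) and -0.91 ± 0.47 for Flnc (adjusted p = 0.283). They were -0.39 ± 0.25 for Itga3 (adjusted p = 0.409), -0.24 ± 0.13 for Myh9 (adjusted p = 0.316) and 0.03 ± 0.18 for Vim (adjusted p = 0.946). Myh9 was at 152.8 to 331.5 CPM in MCM2-2A units and 177.4 to 270.0 CPM in WT units. The January batch holds MCM2-2A clones alone and gives no comparison. In March the sign differed from the pooled fit for Myh9, Flnc, Phldb2, Itga3 and Vim, as MCM2-2A#1 lay above and MCM2-2A#3 below the WT#1 mean, and in August all signs matched it.

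None of the 10 was called, with edgeR (0.616% of 23215 genes called either way) or with DESeq2, and 3 of 10 had an unadjusted p below 0.05. The median log2 fold change was -0.93, beside -0.02 over all genes. Compared with the mean of the WT clones of their batch, all 10 genes were lower in MCM2-2A#3, MCM2-2A#4 and MCM2-2A#7, 9 were lower in MCM2-2A#6 and MCM2-2A#8 and 5 in MCM2-2A#5, and 9 were higher in MCM2-2A#1 in March. Among the 103 partner genes none was called in either direction by edgeR, and 31 had an unadjusted p below 0.05. Neither unadjusted count has the share of all genes beside it, so nothing is read from them. Of 11 primitive endoderm markers 3 were called higher in MCM2-2A clones, and Col1a1 was at 2.11 to 67.4 CPM in MCM2-2A units and 0.738 to 61.6 CPM in WT units. No muscle, fibroblast or mesoderm marker was called. Their median log2 fold changes were 0.28 (14 skeletal and cardiac), -0.000248 (8 smooth muscle), -0.21 (16 fibroblast) and -0.17 (10 mesoderm). The part of these markers in the levels of the 10 genes was not tested.

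The spread among WT clones was among the widest of any genes for the actins and Tagln. The SD of log2 CPM over the 7 WT clones of August was 2.55 for Actc1, which 2 of 23215 genes exceeded, 2.28 for Acta2, which 14 exceeded, and 1.89 for Tagln, which 57 exceeded. It was 1.48 for Phldb2 and 1.11 for Flnc, against a median of 0.30 over all genes tested. Flna and Myh9, at 0.32 and 0.23, were near that median. The 5 MCM2-2A clones of August had SDs of 2.15 for Actc1, 2.71 for Acta2 and 1.87 for Tagln.

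The 10 genes went up and down together over the 17 clone and batch units. Pearson's r of log2 CPM for the 45 pairs ran from 0.374 (Flna with Vim) to 0.975 (Tagln with Tpm1), with a median of 0.863, and these units share clones and batches. The genes whose log2 CPM was most like the mean z-score of the 10, out of 14753 with a mean of at least 1 CPM, were Tnfrsf12a (r = 0.989), which encodes the TWEAK receptor, Samd4 (r = 0.988), an RNA-binding protein gene, Hdac7 (r = 0.986), a histone deacetylase gene, Anxa3 (r = 0.985), an annexin gene, and the tropomyosin gene Tpm4 (r = 0.982). Tnfrsf12a ranged from 3.25 to 18.7 CPM and Tpm4 from 30.1 to 139.1 CPM over the units.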

How the data were processed

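Libraries were strand-specific and made from rRNA-depleted RNA. Per the labels, the authors used Trimmomatic (version 0.39) for trimming and STAR (version 2.7.1a) for alignment, with mm10 as the genome, and featureCounts for counting. The deposited values are raw counts for 55335 genes and 1146 repeat subfamilies in each of 3 tables, and 3 columns that match no sample were left out. Cultures sequenced in several runs were summed, and clone libraries were summed per clone and batch. CPM were scaled with TMM factors from gene rows. Low features were removed with filterByExpr (min.count 10, min.total.count 15). Genes and repeats were fitted together with edgeR 4.0.16 quasi-likelihood tests (R 4.3.3, limma 3.58.1, statmod 1.5.0) and p-values adjusted over genes. The SE was taken from the F statistic and the fold change of each gene. DESeq2 1.42.0 was an alternative, as were other scaling, filters, limits, units, batches and left-out libraries, and the tests were tested on simulated data. Log2 CPM used a prior count of 2. Gene positions are from GENCODE vM21, which matched 55154 of the gene rows. Named are all 10 genes, called list genes with the 3 largest changes per list and comparison, and the 5 genes most like the 10. One list gene that this rule names is not reported here. The members, lists and rules were chosen with earlier results of these data known. P-values measure the spread between the cultures or libraries of single clones in the POLE4 and rescue experiments. In the clone experiment they measure the spread between clone and batch units. There 15 clones gave 17 units, because WT#1 and MCM2-2A#1 were sequenced in more than 1 batch, and the units of a clone were treated as independent. Counts of 0 are limited by counting error of 3 counts. WT#5 is not analysed here.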

Additional observations from a re-analysis of the deposited data

Results flagged for a closer look

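Within groups of 4 to 7 samples, 8 of 50 tests found 1 sample far from the rest. The limit is set for about 1 in 20 with independent, normally spread values. These were CPM of genes that vary together, so the 50 tests are not independent and that share is no guide here. Culture 2 of WT#1 in the rescue experiment was low for Flnc (61.0 CPM), Phldb2 (14.8 CPM) and Vim (139.5 CPM). Among the August MCM2-2A clones, MCM2-2A#5 was high for Phldb2 (18.6 CPM), Tagln (41.8 CPM), Acta2 (32.5 CPM) and Actc1 (0.905 CPM), and among the August WT clones WT#1 was high for Actc1 (10.3 CPM).

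In March every library of MCM2-2A#1 lay above and every library of MCM2-2A#3 below the WT#1 mean for 9 of the 10 genes. The log2 ratio of MCM2-2A#1 to MCM2-2A#3 was 4.61 for Acta2, 3.93 for Tagln, 3.34 for Phldb2, 2.17 for Tpm1, 2.03 for Flnc, 1.45 for Itga3, 0.88 for Flna, 0.74 for Myh9 and 0.46 for Vim. Every library of POLE4-KO#3 lay above the WT#1 mean, and every library of POLE4-KO#1 and POLE4-KO#2 below it, for 4 genes. The log2 ratios of POLE4-KO#3 to POLE4-KO#1 and to POLE4-KO#2 were 6.92 and 5.86 for Actc1, 5.16 and 3.91 for Acta2, 2.63 and 1.27 for Flnc, and 1.63 and 1.62 for Itga3. These opposite movements were not tested.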

How the results depend on the processing

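Genes called of the 10 changed most in the rescue experiment. For MCM2-2A#2 over WT#1 (1 called), the count was 4 with no low-count filter, 5 at an adjusted p below 0.05 with no fold limit, 0 with the culture number as a replicate block, 0 with the first technical run alone and 0 to 1 without single cultures. For MCM2-R#2 over MCM2-2A#2 (2 called), it was 4 with DESeq2, 8 with no filter, 7 at 0.05 with no fold limit, 4 with the replicate block, 4 with single runs and the run as a covariate, and 1 to 3 without single cultures. For POLE4-KO#3 it was 1 at 0.05 with no fold limit. The counts of 8, 9 and 0 in POLE4-KO#1, POLE4-KO#2 and the MCM2-2A clones, and 0 for MCM2-R#2 over WT#1, moved by less than 1.5 times under the scaling, filter, limit, unit, batch, block, DESeq2 and single left-out library alternatives run for each, and the causes of the moves were not tested. A fit without MCM2-2A#1 and WT#6, tried after seeing the data, made a call over the clones and turned the sign of Vim, and it was dropped because the pair had been picked by the levels of these genes. Signs turned for MCM2-R#2 over WT#1 in Myh9 (-0.026 without WT#1 culture 2 to 0.12 over single cultures left out, -0.00244 without MCM2-R#2 culture 3) and Phldb2 (-0.048 without MCM2-R#2 culture 3 to 0.43). Over the clones they turned in March alone for Myh9 (0.057), Flnc (0.28), Phldb2 (0.56), Itga3 (0.17) and Vim (-0.14), and for Vim without MCM2-2A#5 (-0.085), WT#8 (-0.039), WT#7 (-0.014) or WT#3 (-0.00472), with 0.19 at the other end. Same-numbered cultures of the rescue experiment correlated above 0.1 in 5 of 12 pairs (highest r = 0.404), and others in 6 of 36 (highest r = 0.261). These values do not settle whether same-numbered cultures were paired. No paired analysis was possible because the WT#1 columns of the POLE4 table carry no number that matches a knockout library, which concerns the comparisons with WT#1. Among the knockout clones 9 of 9 same-numbered pairs exceeded 0.1, and 0 of 18 others did. In fits of the 9 knockout libraries alone, added after seeing the data, the number as a replicate block moved no log2 ratio of the 10 genes by more than 0.00956 for POLE4-KO#3 over POLE4-KO#1 (0.32 to 6.79 with the block) or 0.0154 for POLE4-KO#3 over POLE4-KO#2 (0.40 to 5.84 with the block).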
